A study of Homo sapiens with 2 samples.

Results

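The 5 genes of the C/EBP (CCAAT/enhancer-binding protein) transcription factor family, CEBPA, CEBPB, CEBPD, CEBPE and CEBPG, were examined for DNA methylation in a t(8;21) acute myeloid leukemia (AML) cell line and in its derivative with a silenced fusion gene. The genes were chosen by name, placed on hg19 with the GENCODE annotation, and extended by 5 kb on both sides. They are 5 of the 19458 protein-coding genes with at least 1 CpG site covered in both libraries in such a window, and their windows held 523 of the 3168726 sites covered by at least 5 reads in both libraries.

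The data were 1 MCC-Seq library of SKNO-1 and 1 MCC-Seq library of SKNO1-siAE. SKNO-1 is an AML line that carries RUNX1-RUNX1T1 (also called AML1-ETO), the product of the t(8;21) translocation. SKNO1-siAE, called SKNO-siAE in the study's text, is SKNO-1 infected with a lentiviral vector whose siRNA sequence matches the fusion site of that transcript, and the comparison addresses how methylation differs when the fusion is silenced. Whether SKNO1-siAE is 1 clone and whether a control vector was used for SKNO-1 are not given in the sources used here, and the silencing itself cannot be checked in methylation counts. In MCC-Seq, bisulfite turns unmethylated cytosines into bases read as thymine and probes capture CpG-rich DNA, so each CpG cytosine on each strand has a count of methylated and of unmethylated reads. The share of methylated reads among all reads of a site is called its level and given in percent, and differences in percentage points, SKNO-1 minus SKNO1-siAE.

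The shared sites had a median of 16 reads in the SKNO-1 library and 15 in the SKNO1-siAE library, and their mean level differed by -6.74 points, so SKNO-1 was less methylated on average. In mitochondrial DNA, 0.351% and 0.378% of the reads were counted as methylated. With 1 library a line, every test below compares these libraries and not the conditions, and it has no replicate check. Intervals are 95% intervals of pooled reads that cover counting error only, since reads carried no molecular identifiers and neighbouring sites lie on the same reads.

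C/EBP proteins are basic leucine zipper factors that bind DNA as dimers with each other or with related zipper proteins. CEBPA encodes the factor that commits progenitors to the granulocyte lineage, and its loss of function is a recurrent lesion in AML. CEBPB drives emergency granulopoiesis and macrophage genes, CEBPD responds to cytokines and to acute-phase signals, and CEBPE is needed for the late steps of neutrophil maturation and for secondary granule genes. CEBPG lacks the activation domains of the other members and dimerizes with them. Methylation of CpG-rich sequence at a gene start usually accompanies a silent gene, while methylation within gene bodies is common in active genes.

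The hg19 sequences below carry the differences described further on, or, for the near band of CEBPA, lie beside them without methylation. Each is written 5′ to 3′ on the strand of its gene, and capitals mark CpGs with at least 1 site covered in both libraries. The upstream far band of CEBPA is chr19:33794602-33794841 on the - strand, at -1401 to -1162 bp from the transcription start, where the level was high in SKNO-1 and low in SKNO1-siAE. The upstream near band, chr19:33793886-33794054 on the - strand, at -614 to -446 bp, was unmethylated in both libraries. The coding stretch, chr19:33792616-33792800 on the - strand, holds the 39 sites of the CEBPA coding sequence that both libraries cover. The CEBPE stretch, chr14:23586713-23586985 on the - strand, is coding sequence of the last exon, which held the difference in that gene. The CEBPG stretch, chr19:33863810-33863877 on the + strand, is the upstream piece where 3 sites were called.
CEBPA upstream far band: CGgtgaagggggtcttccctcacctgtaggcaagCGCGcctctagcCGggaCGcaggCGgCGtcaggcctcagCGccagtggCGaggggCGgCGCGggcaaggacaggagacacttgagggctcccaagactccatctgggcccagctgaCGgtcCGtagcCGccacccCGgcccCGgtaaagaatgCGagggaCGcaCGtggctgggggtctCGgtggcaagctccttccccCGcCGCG
CEBPA upstream near band: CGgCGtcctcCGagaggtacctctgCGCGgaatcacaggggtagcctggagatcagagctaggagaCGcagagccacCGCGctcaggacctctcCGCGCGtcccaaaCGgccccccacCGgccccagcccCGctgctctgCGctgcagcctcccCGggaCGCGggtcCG
CEBPA coding stretch: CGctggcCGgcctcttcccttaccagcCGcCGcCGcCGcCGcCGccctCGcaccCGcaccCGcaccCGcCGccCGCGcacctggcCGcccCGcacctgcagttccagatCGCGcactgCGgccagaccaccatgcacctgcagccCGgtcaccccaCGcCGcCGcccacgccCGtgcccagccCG
CEBPE last exon: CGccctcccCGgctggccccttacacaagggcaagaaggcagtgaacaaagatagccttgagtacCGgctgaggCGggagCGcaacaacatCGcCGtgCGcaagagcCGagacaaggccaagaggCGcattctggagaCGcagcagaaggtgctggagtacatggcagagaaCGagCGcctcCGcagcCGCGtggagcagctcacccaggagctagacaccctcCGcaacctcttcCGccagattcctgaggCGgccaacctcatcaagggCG
CEBPG upstream: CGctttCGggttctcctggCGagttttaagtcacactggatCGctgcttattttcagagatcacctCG

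Of the 5 genes, CEBPA and CEBPE held nearly all sites that were called more methylated in SKNO-1. A site was called when the Benjamini-Hochberg adjusted p of a 2-sided Fisher's exact test, adjusted over all shared sites, was under 0.05 and the levels differed by at least 20 points. In the 5 windows, 128 of 523 sites (24.5%) were called higher in SKNO-1 and 11 (2.10%) lower, while 4.4% of all shared sites were called higher and 11.7% lower. CEBPA had 85 of 168 sites called higher and CEBPE 38 of 87, with 0 called lower in either gene. The windows of CEBPB, CEBPD and CEBPG together had 5 of 268 sites called higher. CEBPB had 0 higher and 3 lower of 69, CEBPD 1 higher and 5 lower of 82, and CEBPG 4 higher and 3 lower of 117. A Bonferroni adjustment left 27 sites of CEBPA and 11 of CEBPE, and 0 in the other genes. With at least 10 reads required, 46 of the 80 remaining sites of CEBPA were called higher. The shares of all shared sites called under these other settings were not computed.

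**Figure D1:**
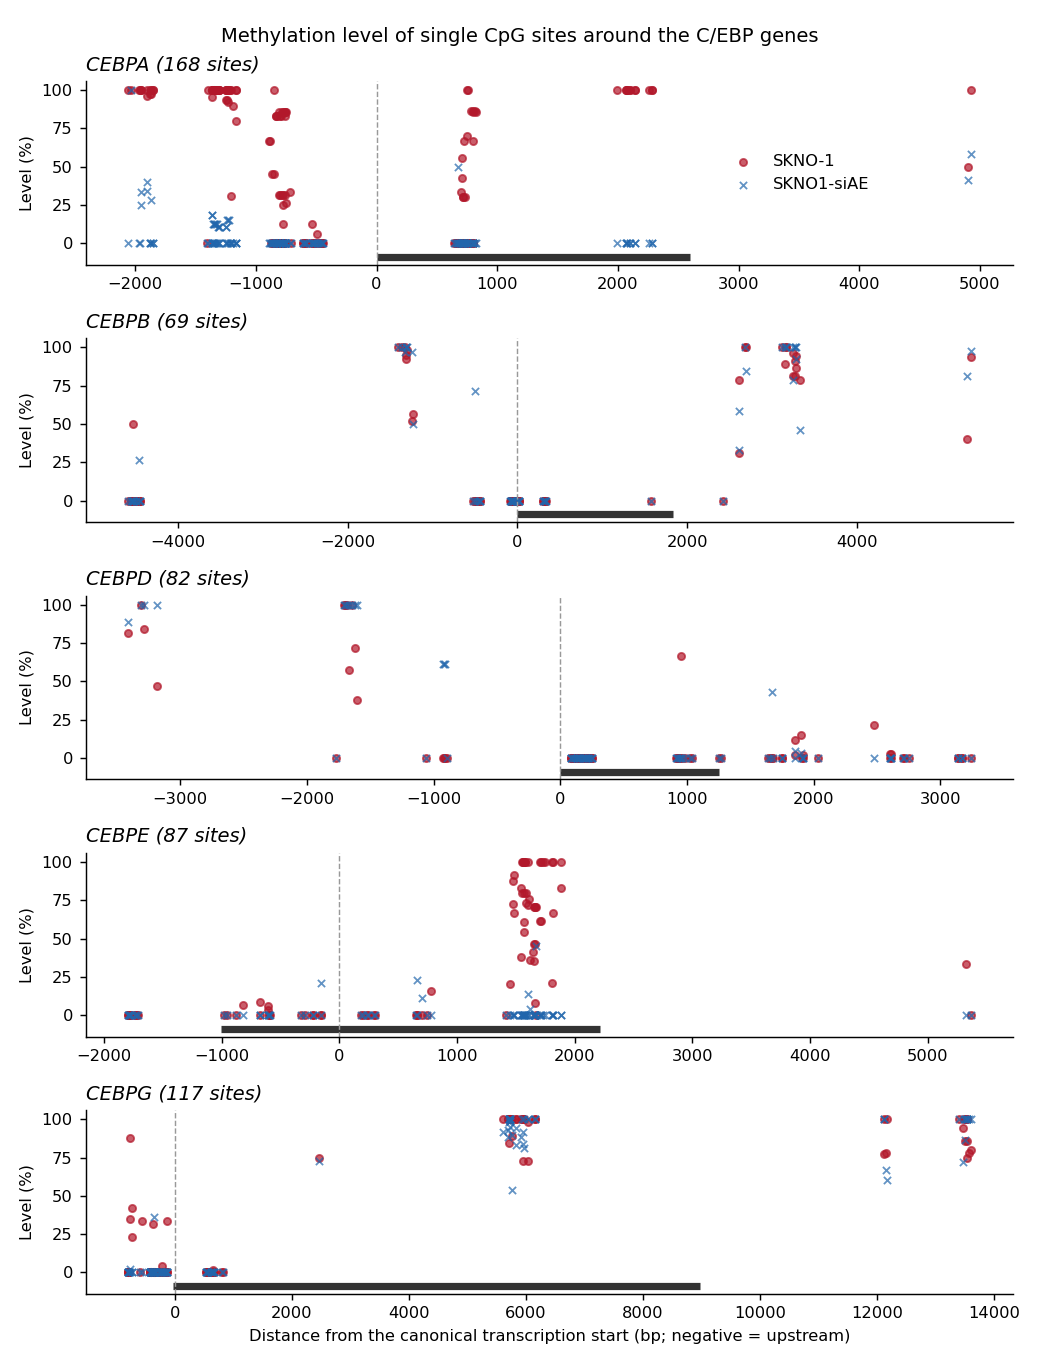
Methylation level in percent (y axis) of each shared CpG site against its distance in bp from the canonical transcription start (x axis), for the 5 C/EBP genes in SKNO-1 (circles) and SKNO1-siAE (crosses), with the annotated gene as a dark bar. SKNO-1 lies far above SKNO1-siAE on both sides of the CEBPA start and in the last exon of CEBPE, and the libraries lie close together in most sites of the other 3 genes.

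CEBPA (ENSG00000245848, chr19:33790840-33793440, - strand) is a gene of 1 exon. Within 5 kb upstream, the 115 shared sites averaged 58.9% in SKNO-1 and 4.10% in SKNO1-siAE, a difference of 54.8 points. The pooled methylated reads were 1149 of 1775 in SKNO-1 (64.7%, interval 62.5% to 66.9%) and 74 of 1694 in SKNO1-siAE (4.37%, 3.49% to 5.45%). A total of 64 of these sites were called higher and 0 lower. SKNO-1 levels fell into separate classes, with 65 sites at 80% or more, 37 at 20% or less and 13 between, whereas 109 of the 115 sites were at 20% or less in SKNO1-siAE. SKNO-1 was the higher library at 80 sites and the lower one at 0, and the levels were equal at the other 35.

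The shared sites upstream of CEBPA lay from -2062 to -446 bp. Between -2000 bp and the start, the difference was larger far from the start than close to it. The 2 sites in the band from -2500 to -2001 bp had 100% in SKNO-1 and 50% in SKNO1-siAE. In the 500 bp band from -2000 to -1501 bp, 12 sites had 99.3% in SKNO-1 and 13.4% in SKNO1-siAE. The band from -1500 to -1001 bp held 40 sites at 94.4% and 5.25%, of which 38 were called. From -1000 to -501 bp the level in SKNO-1 was 29.7% over 54 sites and that in SKNO1-siAE was 0%. The 7 sites from -500 bp to the start had 0.893% and 0%, and none of them was called. The printed near band had 0.987% in SKNO-1 over its 19 sites and 0% in SKNO1-siAE, so the border between methylated and unmethylated DNA in SKNO-1 lay upstream of -614 bp. No site was shared between -446 bp and 640 bp, so the start itself, with the 5′ untranslated region, was not measured in this comparison. In the SKNO-1 library alone, the 40 sites within 500 bp of the start, shared or not, had a mean of 0.156%.

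Regions were also searched for: runs of 5 or more shared sites with gaps up to 300 bp, in which the difference, smoothed over 5 sites, reached 20 points. Candidates were called by a Mann-Whitney U test of the site levels with a Bonferroni adjustment over all shared sites. Since candidates were chosen for their difference and neighbouring sites share reads, a call sorts candidates within this pair of libraries and is no independent test of the difference, and no p is given. Genome-wide, 1.05% of 50640 candidate regions were called higher in SKNO-1 and 4.75% lower. Upstream of CEBPA, 44 sites at chr19:33794309-33794841 formed a called region that averaged 88.9% against 4.78%. Its pooled reads were 93.9% methylated in SKNO-1 (91.9% to 95.4%) and 5.58% in SKNO1-siAE (3.98% to 7.78%). Another 5 candidate regions of the CEBPA window were not called. A complete difference needs at least 17 sites to be called by this test, which the 14 sites at -2062 to -1855 bp (99.4% against 18.7%) and the 12 sites in the 3′ untranslated region did not reach. The site with the smallest adjusted p lay at -1964 bp, with 58 methylated reads of 58 in SKNO-1 and 0 of 18 in SKNO1-siAE (Fisher's exact test, adjusted p = 1.72e-15). CEBPA-DT, a noncoding RNA gene that starts at -323 bp and runs away from CEBPA, covers these upstream sites, and the noncoding genes ENSG00000267130, ENSG00000267580 and ENSG00000267727 also overlap the window, so the sites do not belong to CEBPA alone.

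The single exon of CEBPA differed by 43.3 points, with 44.2% in SKNO-1 and 0.980% in SKNO1-siAE over 51 sites, 21 of them called higher. Its parts were unlike each other. The 12 sites of the 3′ untranslated region were all at 100% in SKNO-1 (122 of 122 reads, 96.9% to 100%) and all at 0% in SKNO1-siAE (0 of 225 reads, 0% to 1.68%), and all 12 were called. In the coding sequence, 39 sites had 27.1% in SKNO-1 and 1.28% in SKNO1-siAE, and 9 were called. All 7 exon sites that reached 10 reads in each library lie in the 3′ untranslated region. The sites of each library on its own, shared or not, gave an exon difference of 27.4 points.

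In the coding sequence of CEBPA the level in SKNO-1 was carried by 1 strand. The 15 sites on the + strand had a mean level of 68.2%, from 30% to 100%, with 125 of 175 reads methylated. The 24 sites on the - strand had 1.39%, with 3 of 167 reads methylated, and 23 of them were at 0%. In SKNO1-siAE, 0 of 120 reads on the + strand and 5 of 237 on the - strand were methylated. At the 13 CpGs covered on both strands in both libraries, the strands differed by 65.4 points on average in SKNO-1, and by at least 50 points at 9 of them. Between -900 and -700 bp, 17 such CpGs had 65.5% on the + strand and 15.6% on the - strand, with 13 of them at least 50 points apart. The strands were close together further out, at 99.7% and 92.5% for 16 CpGs from -1500 to -1100 bp, and at 100% on both for 4 CpGs of the 3′ untranslated region. Over the 989218 CpGs of the whole table with both strands covered, 4.57% differed by at least 50 points in SKNO-1 and 4.13% in SKNO1-siAE. On the - strand alone the coding sequence had a difference of -0.69 points, so the value of 25.8 points for both strands rests on the + strand. The coding sites had 5 to 15 reads each in SKNO-1, and the cause of the strand difference was not tested.

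**Figure D2:**
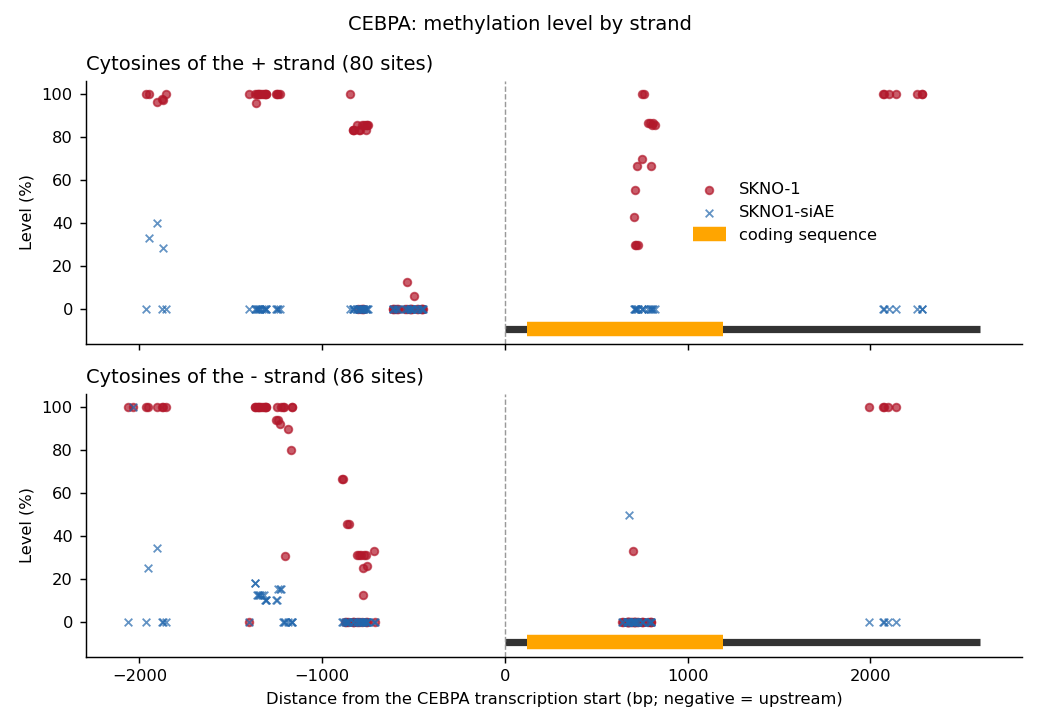
Methylation level in percent (y axis) of shared CpG sites of CEBPA against the distance in bp from the transcription start (x axis; the 2 downstream sites, both on the - strand, lie outside the plotted range), for cytosines of the + strand (80 sites, top) and the - strand (86 sites, bottom) of the genome, in SKNO-1 (circles) and SKNO1-siAE (crosses). Most far upstream sites and the sites in the 3′ untranslated region are high on both strands in SKNO-1. In the coding sequence, SKNO-1 levels range from 30% to 100% on the + strand, and 23 of 24 sites are at 0% on the - strand.

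CEBPE (ENSG00000092067, chr14:23586245-23589465, - strand) had all its called sites in its last exon. Over all exons, 58 sites had 55.7% in SKNO-1 and 1.49% in SKNO1-siAE, a difference of 54.2 points, and 38 sites were called higher. All 38 lay in the last exon of the canonical transcript, where 45 sites had a mean of 71.7% in SKNO-1, from 545 of 764 methylated reads (71.3%, 68.0% to 74.4%) and 10 of 946 in SKNO1-siAE (1.06%, 0.575% to 1.93%). The coding sequence of CEBPE had 57.4% and 1.80% over 48 sites, and the 6 sites of its 3′ untranslated region had 78.5% and 0%. The other canonical exon had 9 sites at 0% in SKNO-1 and 2.56% in SKNO1-siAE, and the 17 shared intron sites had 2.03% and 1.87%. Over the sites of each library, shared or not, the intron had 15.9% in SKNO-1 (26 sites) and 1.77% in SKNO1-siAE (18 sites). The downstream flank had 16.7% and 0% over 2 shared sites. Over the sites of each library it had 60.9% in SKNO-1 (7 sites) and 0% in SKNO1-siAE (4 sites). All 10 shared sites of the upstream flank, which lie from -1798 to -1713 bp, were at 0% in both libraries.

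The called region of CEBPE, chr14:23586582-23587047, held 46 sites at 70.1% and 1.37%. The site with the smallest adjusted p lay at 1578 bp after the start, with 24 of 24 reads methylated in SKNO-1 and 0 of 44 in SKNO1-siAE (Fisher's exact test, adjusted p = 1.70e-16). Unlike the coding sequence of CEBPA, both strands of this region were methylated in SKNO-1, at 69.5% over 25 sites of the + strand and 70.9% over 21 sites of the - strand. Of the 21 CpGs of this exon covered on both strands, 3 differed by at least 50 points between the strands in SKNO-1. Among all such CpGs of the whole table, 4.57% did. The mean gap between the strands was 30.4 points over the 21 CpGs and 10.1 points over the whole table. In SKNO-1 the exon sites of CEBPE were spread, with 21 at 80% or more, 21 between 20% and 80%, and 16 at 20% or less. In bulk DNA a middle level can come from a share of the cells or from a share of the alleles in each cell, and these cannot be told apart. Merging both strands of a CpG, after the minimum of 5 reads on each strand, lowered the exon difference to 36.8 points over 42 CpGs. A merged CpG could be covered on different strands in the libraries. In the whole window, 24 of 62 merged CpGs were called higher.

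CEBPD (ENSG00000221869, chr8:48649475-48650726, - strand), a gene of 1 exon, went the other way in its upstream flank. Its 17 upstream sites had 51.7% in SKNO-1 and 74.9% in SKNO1-siAE, a difference of -23.2 points, with 5 sites called lower and 0 higher. Pooled, 235 of 335 reads (70.1%, 65.0% to 74.8%) and 214 of 247 reads (86.6%, 81.8% to 90.3%) were methylated. In SKNO-1 the level was lower at 9 sites, equal at 8 and higher at 0. At 3 neighbouring sites from -927 to -910 bp, SKNO-1 had 0 methylated reads of 14 and SKNO1-siAE had 8 of 13 (Fisher's exact test, adjusted p = 0.00519 at each), with the same read numbers at all 3. The candidate region around them, 5 sites at 0% and 36.9%, was not called. Over the sites of each library the upstream difference was -41.0 points, but from pooled reads it was -16.5 and with merged strands -15.5. The exon was nearly free of methylation, at 1.75% and 0% over 38 sites, and the 27 downstream sites had 2.09% and 1.87%. A single exon site, at 951 bp, was called higher, with 6 of 9 reads methylated in SKNO-1 and 0 of 22 in SKNO1-siAE (Fisher's exact test, adjusted p = 0.00131).

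CEBPG (ENSG00000153879, chr19:33864591-33873592, + strand) is the nearest coding gene to CEBPA on 1 side, with its start at -71175 bp on the scale of CEBPA. Its 59 upstream sites had 4.91% in SKNO-1 and 0.659% in SKNO1-siAE, a difference of 4.25 points. The sites called higher there were the 3 in the printed stretch, where 10 sites had 18.7% and 0.25%. At -764 bp, the methylated reads were 14 of 16 in SKNO-1 and 0 of 14 in SKNO1-siAE (Fisher's exact test, adjusted p = 1.81e-05). The upstream difference was 7.51 points with at least 10 reads and 2.37 points over the sites of each library. The coding sequence of CEBPG was methylated in both libraries, with 97.6% and 92.6% over 23 sites, and the 15 downstream sites had 90.3% and 92.4%. Another 15 sites of the gene, from 500 to 999 bp, were nearly free of methylation, at 0.0913% and 0%. Over all 37 exon sites the means were 70.8% and 68.4%, a difference of 2.37 points that turned to -6.25 points when reads were pooled. One exon site, at 6041 bp, was called lower, with 35 of 48 and 54 of 54 reads methylated (Fisher's exact test, adjusted p = 2.98e-04).

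CEBPB (ENSG00000172216, chr20:48807367-48809205, + strand), a gene of 1 exon, had small differences in every part. Its upstream flank had 18.6% in SKNO-1 and 21.1% in SKNO1-siAE over 40 sites, and its downstream flank 80.1% and 81.8% over 18 sites. The upstream difference was -2.45 points, and it was -3.88 points with merged strands, -4.50 points with flanks of 2 kb and -6.09 points over the sites of each library. The interval of the pooled upstream difference ran from -7.94 to 2.58 points. All 11 exon sites were at 0% in both libraries, from 88 and 89 reads (upper bounds 4.18% and 4.14%). Within the flank, methylation was high in 1 stretch, with 86.8% and 93.1% over 8 sites from -1500 to -1001 bp. It was low farther out, with 7.14% and 0% over 7 sites from -5000 to -4501 bp and 0% and 4.44% over the 6 sites of the next 500 bp, and low again from -500 bp on, with 0% and 4.20% over 17 sites. The 3 called sites were all lower in SKNO-1. At -1242 bp, the methylated reads were 25 of 48 in SKNO-1 and 37 of 38 in SKNO1-siAE (Fisher's exact test, adjusted p = 2.86e-05). CEBPB-AS1, an antisense RNA gene, overlaps this window.

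Within 500 bp of the canonical start, the mean level over shared sites was low in both libraries in all 5 genes, although these sites lay only before the start in CEBPA (-495 to -446 bp) and CEBPG and only after it in CEBPD (83 to 254 bp). CEBPA had 0.893% and 0% over 7 sites, CEBPB 0% and 2.65% over 27, and CEBPD 0% and 0% over 27. CEBPE had 0% and 1.72% over 12 sites, and CEBPG 1.47% and 0.774% over 47. Single sites departed from these means. In CEBPB, the site at -495 bp had 0 of 8 reads methylated in SKNO-1 and 10 of 14 in SKNO1-siAE, and in CEBPG the site at -356 bp had 0 of 22 and 4 of 11. In CEBPD, all sites of the SKNO1-siAE library, shared or not, had a mean of 14.5%.

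Gene parts were set beside the same parts of all protein-coding genes with at least 10 shared sites in that part. Upstream flanks differed by 20 points or more towards SKNO-1 in 3.02% of 15120 genes and towards SKNO1-siAE in 13.4%, and among the members CEBPA was higher and CEBPD lower by that much, although the CEBPD difference was -16.5 points from pooled reads and -15.5 with merged strands. Of the other genes, 63 had an upstream difference at least as high as that of CEBPA, and 1697 had one at least as low as that of CEBPD. Exons were higher in 2.2% of 15832 genes and lower in 10.8%, and CEBPA and CEBPE were higher. A total of 124 other genes had an exon difference at least as high as that of CEBPA and 73 at least as high as that of CEBPE. Downstream flanks were higher in 2.62% and lower in 11.7% of 6071 genes, and CEBPB, CEBPD and CEBPG, the members with enough sites there, were within 3 points of 0 over shared sites. Over the sites of each library, the downstream difference was 4.50 points in CEBPD and -3.33 in CEBPG, and with at least 10 reads it was -3.10 in CEBPG. The medians over all genes were -1.51 points upstream, -0.986 points in exons and -1.47 points downstream.

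**Figure D3:**
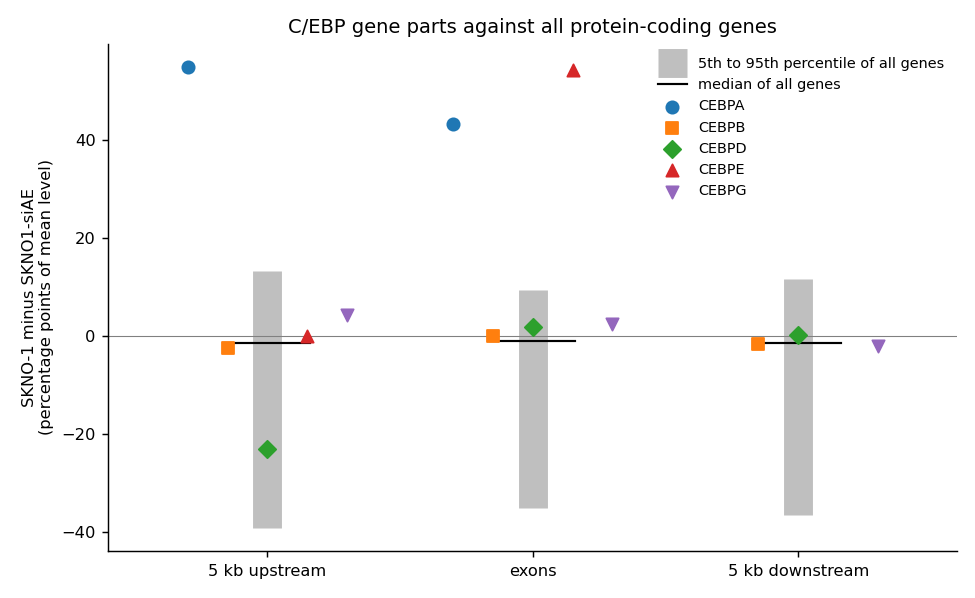
Difference in mean level, SKNO-1 minus SKNO1-siAE in percentage points (y axis), for the upstream flank, the exons and the downstream flank (x axis) of each C/EBP gene with at least 10 shared sites there; grey bars span the 5th to the 95th percentile of all protein-coding genes and black lines mark their medians. CEBPA lies above the grey bar upstream (54.8 points) and in its exon (43.3 points), CEBPE lies above it in the exons (54.2 points), and every other member part lies within it.

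Promoters, taken as 1 kb on both sides of the canonical start, were higher by at least 20 points in 3.05% of 17024 protein-coding genes and lower in 13.9%. The promoter of CEBPA had 26.7% in SKNO-1 and 0.5% in SKNO1-siAE over 100 sites, a difference of 26.2 points, and 388 other genes had one at least as high. It differed between strands, with 42.3% and 0% over 51 sites of the + strand but 10.4% and 1.02% over 49 sites of the - strand, which are less than 20 points apart. The promoter differences of the other members were -2.46 points in CEBPB, -3.02 in CEBPD, -0.47 in CEBPE and 3.41 in CEBPG. The promoters of the nearest coding genes outside the family were not higher by 20 points in SKNO-1. SLC7A10, an amino acid transporter gene on the other side of CEBPA, had 17.4% in SKNO-1 and 86.4% in SKNO1-siAE, with 49 of its 67 sites called lower. SLC7A8, another amino acid transporter gene, next to CEBPE, had 68.5% and 90.7%, with 14 of 32 sites called lower. PEPD, a peptidase gene next to CEBPG, had 6.40% and 7.10%. PTPN1, a phosphatase gene near CEBPB, had 0.486% and 0.963%, and PEDS1, on the other side, had 4.25% and 19.3%. Next to CEBPD, the DNA repair genes PRKDC and SPIDR had 1.27% and 0.225%, and 47.9% and 47.3%. Over the sites of each library, SPIDR had 47.2% in SKNO-1 (116 sites) and 29.2% in SKNO1-siAE (141 sites). The 3′ ends of SPIDR and PEPD reach into the windows of CEBPD and CEBPG. CIROP, beside CEBPE, had 3 shared sites, at 95.4% and 84.3%.

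The promoters of 17 genes that work with the C/EBP factors were read in the same way. Of the 16 with at least 10 shared sites, 1 was higher in SKNO-1 by at least 20 points, 2 were lower and 13 were within 20 points (3.05% and 13.9% of all promoters were higher and lower), with a median of 0.226 points beside -0.711 points over all promoters. Over all 17, 21 sites were called higher and 45 lower of 1108, where 4.4% and 11.7% of all shared sites were called. ELANE, the neutrophil elastase gene, was the one that was higher, at 85.3% in SKNO-1 and 7.03% in SKNO1-siAE over 22 sites, 15 of them called. RUNX1, a partner gene of the fusion, had 0.657% and 25.5% over 25 sites, and CD14, a monocyte surface receptor gene, had 69.0% and 94.3% over 68 sites, with 11 and 22 sites called lower. The dimer partners DDIT3 and ATF4 and the regulators TRIB1, TRIB2 and COP1, which act on C/EBP protein stability, were all under 5% in both libraries. The factor genes SPI1 (9.48% and 10.0%), GFI1 (0.664% and 0.444%) and KLF5 (5.72% and 7.68%) differed by less than 2 points in mean level over sites. From pooled reads the differences were -8.05 points in SPI1 (25.5% and 33.6%, interval -14.7 to -1.24), 0.143 in GFI1 and -2.82 in KLF5. Among the other target genes, the receptor genes CSF3R (16.1% and 14.4%) and IL6R (2.68% and 5.50%) were low in both libraries. The granule protein genes LTF (91.4% and 88.4%), CAMP (62.9% and 57.4%) and LCN2 (99.2% and 95.6%) were methylated in both. The direction at CAMP turned with pooled reads, which gave 54.1% and 61.6%. MPO, the myeloperoxidase gene, had 3 shared sites, at 0% and 21.7%.

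**Figure D4:**
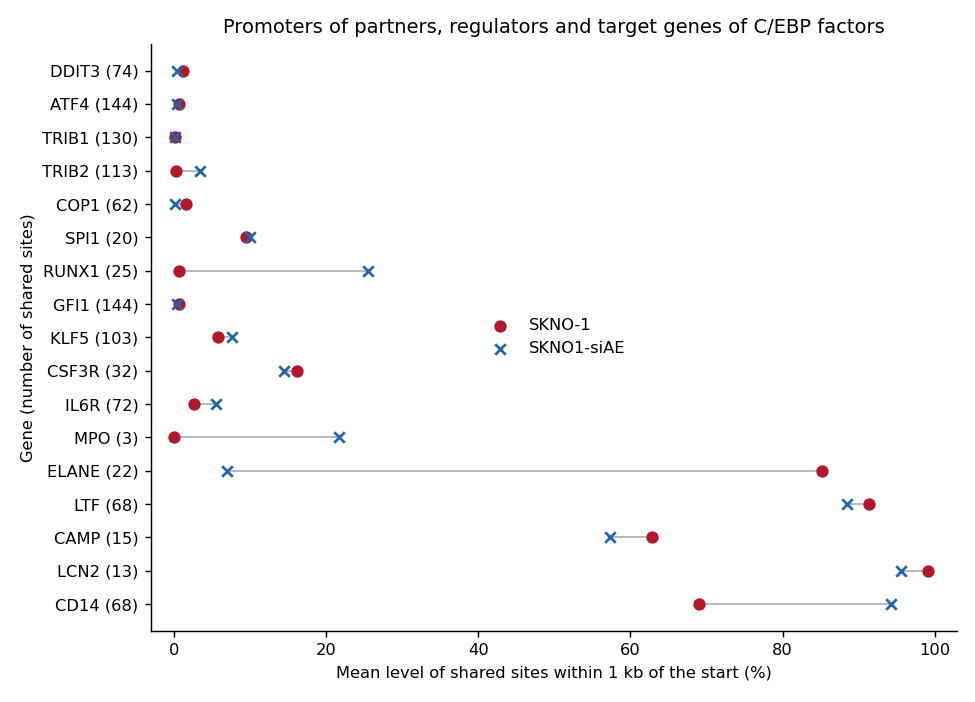
Mean methylation level in percent (x axis) of the shared sites within 1 kb of the canonical start for 17 genes (y axis, with the number of sites), in SKNO-1 (circles) and SKNO1-siAE (crosses), with a line joining the libraries. ELANE (85.3% and 7.03%) has the widest gap, and RUNX1, CD14 and MPO have gaps over 20 points in the opposite direction.

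The protein-coding genes most like CEBPA were found by the distance over 4 values, the upstream and the exon level in each library, among 13059 genes with at least 10 shared sites in both parts. The nearest were ZNF470 (15.9 points away), CRY1 (16.7), SMIM30 (19.4), ZNF461 (21.8) and ZNF350 (21.9). Upstream of CRY1, a circadian clock gene, 77 sites had 69.7% in SKNO-1 and 1.41% in SKNO1-siAE, and its exons 31.7% and 0%. ZNF470, a zinc finger gene on chromosome 19, had 58.5% and 10.0% upstream and 40.3% and 15.2% in its exons. The other C/EBP genes were left out of this search.

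The members also differed in sequence. Within 1 kb of the start, the observed over expected ratio of CpGs was 0.959 in CEBPA, 0.843 in CEBPB, 0.909 in CEBPD and 0.95 in CEBPG, all above the median of 0.637 over 19863 genes, but 0.270 in CEBPE. The RUNX motif TGTGGT, searched on both strands in the 1500 bp before the start, was present once in CEBPB, at -705 bp, and once in CEBPG, at -1495 bp, and these letters were not in that window of CEBPA, CEBPD or CEBPE. Of 19881 promoters, 55.9% held it. The palindromic C/EBP motif TTGCGCAA was in none of the 5 windows and in 0.558% of all. Read numbers were also set beside the levels. Relative to all shared sites, the log2 ratio of reads in SKNO-1 over SKNO1-siAE was -0.05 in the CEBPA window, 0.33 in CEBPB, -0.15 in CEBPD, -0.27 in CEBPE and -0.32 in CEBPG, and between -0.04 and 0.08 in the 5 Mb bins around them. The part of these read numbers in the differences was not tested.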

How the data were processed

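Genomic DNA of SKNO-1 and SKNO1-siAE was bisulfite-converted, captured with SeqCap Epi probes and sequenced as paired reads. The authors removed adapters and low-quality bases with a Perl script (the submitters' processing notes also name cutadapt 1.4.2), aligned the reads to hg19 with BSMAP 2.73, took calls from unique sequences, and deposited for each CpG cytosine and strand the count of methylated and the count of unmethylated reads, without normalization and with at least 5 reads a site. Positions are 1-based. SKNO-1 held 83620068 site reads over 4713346 sites (mean depth 17.7) and SKNO1-siAE 82164216 over 4694016 (17.5).

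Groups came from the cell line labels. Members and lists were chosen with earlier results of these data known. Named were all 5 members, genes overlapping their windows, the nearest coding genes, a list of 17 genes of the pathway, the 5 genes most like CEBPA, and for each member the called site with the smallest adjusted p in each direction, ties by position. Further stretches named in the text were picked with their values known. Gene models were GENCODE 44 lifted to GRCh37, and sequences were read from GRCh37. Upstream and downstream are 5 kb beyond the annotated gene, distances are from the canonical start, and mean levels weight sites equally. Intervals are Wilson intervals and, for differences, Newcombe intervals. The Mann-Whitney U test (normal approximation with ties) was 2-sided. The alternatives were pooled reads, at least 10 reads, each library's own sites, merged strands, flanks of 2 kb, canonical transcripts, and other adjustments, minimum differences and region limits. Metilene, which the methods name for regions, was not used here. Genome sequence was read with samtools 1.23.1 and pysam 0.24.0, the tests ran in python 3.11.15 with scipy 1.17.1 and numba 0.67.0, tables were handled with pandas 2.3.3 and numpy 2.4.6, and figures were drawn with matplotlib 3.10.9.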

Additional observations from a re-analysis of the deposited data

How the results depend on the processing

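Among 152 values under other settings, 109 lay inside an interval as wide as the counting interval of the pooled reads but centred on the reported value (or within 1.5 times of a reported count), 42 moved further and 1 difference of at least 20 points changed sign, and 8 belong to alternatives added after the data were seen. No paired analysis was possible because each line had 1 library, so the spread between cultures or libraries is unknown, and single levels rest on few reads that neighbouring sites share.

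The upstream difference of CEBPA was 60.4 points from pooled reads and 46.1 with merged strands. Its exon difference was 100 with at least 10 reads (7 sites, all in the 3′ untranslated region), 53.0 from pooled reads and 27.4 over the sites of each library. For its coding sequence (25.8 points), the values were 17.1 over the sites of each library, 68.2 on the + strand and -0.69 on the - strand, where both levels were near 0 (1.39% and 2.08%). Its called region (84.1 points) gave 62.9 with smoothing over 9 sites, 89.2 with at most 100 bp between sites and 92.2 with at least 10 reads. The upstream difference of CEBPD was -16.5 from pooled reads, -15.5 with merged strands and -41.0 over the sites of each library. The exon difference of CEBPE was 62.2 with at least 10 reads, 61.8 from pooled reads, 36.8 with merged strands, 44.1 over the sites of each library and 58.1 for the canonical transcript. Upstream of CEBPG it was 7.51 with at least 10 reads and 2.37 over the sites of each library. In 3 cases a smaller difference changed sign: the exon of CEBPG, to -6.25 from pooled reads and -4.65 over the sites of each library, and downstream of CEBPB, from -1.66 to 0.957 with flanks of 2 kb. The causes were not tested.

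Sites called higher in CEBPA (85 of 168) numbered 46 of 80 with at least 10 reads and 27 of 168 after Bonferroni adjustment, and in CEBPE (38 of 87) 11 of 87 after Bonferroni adjustment and 24 of 62 with merged strands. After Bonferroni adjustment 0 sites were called in CEBPB, CEBPD or CEBPG. For these settings the share of all sites called was not computed. Flanks of 2 kb left no site downstream of CEBPA, CEBPE and CEBPG, and at least 10 reads left none in the exon of CEBPB, upstream of CEBPE or in the coding sequence of CEBPA.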
